A study of Homo sapiens with 10 samples.

Results

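Genes that mark or drive the epithelial-mesenchymal transition (EMT), together with the classical cadherins, were examined in T47D cells after silencing *TRPS1* or *CHD4*. The 10 genes were chosen by name: *CDH1*, *CDH2*, *CDH3*, *VIM*, *ZEB1*, *ZEB2*, *SNAI1*, *SNAI2*, *TWIST1* and *EPCAM*. All 10 were present among the 19695 genes of the RNA-seq count tables. T47D is a long-established breast cancer line of luminal, estrogen receptor-positive type. TRPS1 is a zinc finger protein with a GATA-type domain that acts as a transcriptional repressor, and CHD4 is the ATPase of the NuRD chromatin remodeling and deacetylase complex. RNA was sequenced 72 h after transfection from 2 libraries per group, the groups being control siRNA, *TRPS1* siRNA and *CHD4* siRNA, with no other treatment named. The study's methods name an shRNA in place of the *CHD4* siRNA for RNA-seq. Chromatin of the same, otherwise untreated line was immunoprecipitated with a TRPS1 antibody in 2 libraries beside 2 input libraries, from which 1 list of 1844 TRPS1 peaks was deposited. The labels do not say whether replicates came from separate transfections, so every p-value measures only the spread between these libraries, which may be technical.

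During EMT, epithelial cells give up E-cadherin junctions and gain a motile, mesenchymal phenotype. E-cadherin (*CDH1*) holds epithelial cells together through catenins, and the transcription factors ZEB1, ZEB2, SNAI1 (Snail), SNAI2 (Slug) and TWIST1 act upstream, the ZEB and Snail factors by binding E-boxes and repressing *CDH1*. N-cadherin (*CDH2*) and the intermediate filament protein vimentin (*VIM*) are classical mesenchymal markers, P-cadherin (*CDH3*) is known from basal breast epithelium, and *EPCAM* encodes an epithelial surface adhesion molecule. Luminal breast cancer lines are typically epithelial, with E-cadherin and little vimentin.

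Upstream sequences were in the RefSeq promoter table (GRCh38.p14) for 4 of the 10 genes, all from the mesenchymal side of the group. They are shown because these members had low or undetected RNA in T47D cells, and because TRPS1 binds GATA elements. Each run holds the 250 bases before the first annotated start of the gene, on its own strand. Capitals mark a GATA element (the word AGATAA, also with T as its first or G as its last letter) or the E-box CACCTG, each searched on both strands.
*VIM* (chr10:17227991-17228240, plus strand): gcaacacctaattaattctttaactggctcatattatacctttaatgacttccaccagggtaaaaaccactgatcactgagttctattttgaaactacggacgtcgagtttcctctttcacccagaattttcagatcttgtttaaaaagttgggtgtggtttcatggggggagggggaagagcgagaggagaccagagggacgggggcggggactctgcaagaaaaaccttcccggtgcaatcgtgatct
*ZEB1* (chr10:31318167-31318416, plus strand): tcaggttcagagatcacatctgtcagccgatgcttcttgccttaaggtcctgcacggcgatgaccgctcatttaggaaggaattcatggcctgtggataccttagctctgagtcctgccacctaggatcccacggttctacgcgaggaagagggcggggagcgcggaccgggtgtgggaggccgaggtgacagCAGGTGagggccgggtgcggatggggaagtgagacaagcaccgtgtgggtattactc
*ZEB2* (chr2:144520120-144520369, minus strand): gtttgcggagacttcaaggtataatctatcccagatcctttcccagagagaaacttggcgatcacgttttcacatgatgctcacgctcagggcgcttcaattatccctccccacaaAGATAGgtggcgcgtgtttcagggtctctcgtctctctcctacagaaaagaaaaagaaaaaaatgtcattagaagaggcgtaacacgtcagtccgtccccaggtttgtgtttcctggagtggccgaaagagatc
*CDH2* (chr18:28177131-28177380, minus strand): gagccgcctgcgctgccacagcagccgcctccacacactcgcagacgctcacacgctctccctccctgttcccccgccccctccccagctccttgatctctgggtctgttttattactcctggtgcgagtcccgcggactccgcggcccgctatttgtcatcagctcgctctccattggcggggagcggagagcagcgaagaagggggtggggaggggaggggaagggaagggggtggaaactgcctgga
The *ZEB2* window held 1 GATA element, 134 bases before the start, and the *ZEB1* window held 1 E-box, read as CAGGTG 57 bases before the start. The *VIM* and *CDH2* windows held neither motif. *ZEB1* and *CDH2* also have later annotated starts, not printed here. The window of a later *ZEB1* start, chr10:31318966-31319215, held 2 E-boxes, and those of its other later starts and of the later *CDH2* start held neither motif. Among all 34943 promoters of the same length in the table, later starts included, 22.4% held a GATA element and 17.5% held the E-box. A match is a description of letters and not of binding, and no TRPS1 peak lay in any of the 4 windows.

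The RNA-seq libraries held 10333138 to 14668358 counts, so that the limit of detection, set at 3 counts, corresponded to 0.197 to 0.288 CPM, the count of a gene scaled to a common library total. CPM values below are scaled with TMM factors over all 6 libraries. Across genes, control siRNA replicate 1 correlated with the other 5 libraries at r = 0.880 to 0.898 on the log2(CPM + 1) scale, whereas the other 10 pairs of libraries reached 0.949 to 0.978. Fold changes of members that rest on this library are therefore also given without it, as are those of some other genes. *TRPS1* itself had 19723 and 30078 counts in control siRNA and 12160 and 10996 in *TRPS1* siRNA libraries (log2 fold change -0.97, SE 0.39, adjusted p = 0.659). *CHD4* had 4099 and 3784 counts in control siRNA and 1026 and 677 in *CHD4* siRNA libraries (log2 fold change -1.96, SE 0.42, adjusted p = 0.784). All 10 luminal breast epithelial markers had at least 3 counts in every library. Upon silencing *TRPS1*, 5 of 10 tested lay below both controls in both libraries and 1 above, beside 21.3% and 22.8% of all tested genes. Upon silencing *CHD4*, 7 of 9 tested lay below and 0 above, beside 19.7% and 20.1%. The keratin genes *KRT8*, *KRT18* and *KRT19* held most of the summed level of all 10. This sum was 10525 to 13766 CPM in control siRNA, 5157 to 5350 in *TRPS1* siRNA and 4482 to 6118 in *CHD4* siRNA libraries. Of the basal or myoepithelial markers, 3 of 9 (*ACTA2*, *TP63* and *OXTR*) reached 3 counts in every library. Summed levels were 16.4 to 18.1, 35.4 to 39.0 and 35.1 to 54.3 CPM in the same order. Most of this sum was *ACTA2* (means 13.8, 25.4 and 25.9 CPM) and *TP63* (1.94, 10.0 and 16.2 CPM). The basal keratin genes *KRT5*, *KRT14* and *KRT17* had 8 counts or fewer in every library. Fibroblast markers summed to 63.7 to 157, 80.9 to 107 and 61.2 to 90.9 CPM, with 1 of 8 (*COL1A1*) detected in every library. Endothelial and leukocyte markers summed to 1.54 to 2.04, 3.65 to 5.33 and 4.49 to 5.63 CPM, again with 1 of 8 (*CD68*) detected in every library and none of the others in the tables at 0 in all 6. Among those others the fibroblast marker *PDGFRB* had the most counts, with 0 and 1 in control siRNA, 2 and 10 in *TRPS1* siRNA and 21 and 22 in *CHD4* siRNA libraries, followed by the endothelial marker *VWF* with 0 and 1, 5 and 2, and 15 and 8. In bulk RNA, fewer cells of a type and less RNA per cell cannot be told apart.

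The epithelial members were detected in every library and none passed the test after either knockdown. *CDH1*, encoding E-cadherin, had 16684 and 12379 counts in the control siRNA libraries, 9402 and 15558 after silencing *TRPS1*, and 10328 and 9834 after silencing *CHD4*. In CPM these were 1225 and 936, 904 and 1023, and 966 and 791. The *TRPS1* siRNA libraries overlapped the controls, and so did the *CHD4* siRNA libraries. The log2 fold change of *CDH1* was -0.16 upon silencing *TRPS1* (SE 0.32, adjusted p = 0.876) and -0.29 upon silencing *CHD4* (SE 0.35, adjusted p = 0.851). Without control siRNA replicate 1, the higher control, they were 0.049 and -0.073. *EPCAM* was at 68.1 and 129 CPM in control siRNA, 118 and 135 in *TRPS1* siRNA and 108 and 130 in *CHD4* siRNA libraries. Its lowest value was that of control siRNA replicate 1, and the other 5 libraries lay close together. The log2 fold change was 0.37 (SE 0.41, adjusted p = 0.775) upon silencing *TRPS1*, but -0.02 without that control library. Upon silencing *CHD4* it was 0.28 (SE 0.43, adjusted p = 0.883), and -0.10 without that library. P-cadherin (*CDH3*) was at 252 and 135 CPM in control siRNA, 179 and 201 in *TRPS1* siRNA and 207 and 194 in *CHD4* siRNA libraries. All 4 knockdown libraries lay between both controls. The log2 fold changes were -0.02 (SE 0.40, adjusted p = 0.988) and 0.06 (SE 0.41, adjusted p = 0.979), and without control siRNA replicate 1 they were 0.50 (adjusted p = 0.195) and 0.59 (adjusted p = 0.331). Fits with a lone library in a group take their spread from the other group and assume that the lone library varies like it.

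**Figure D1:**
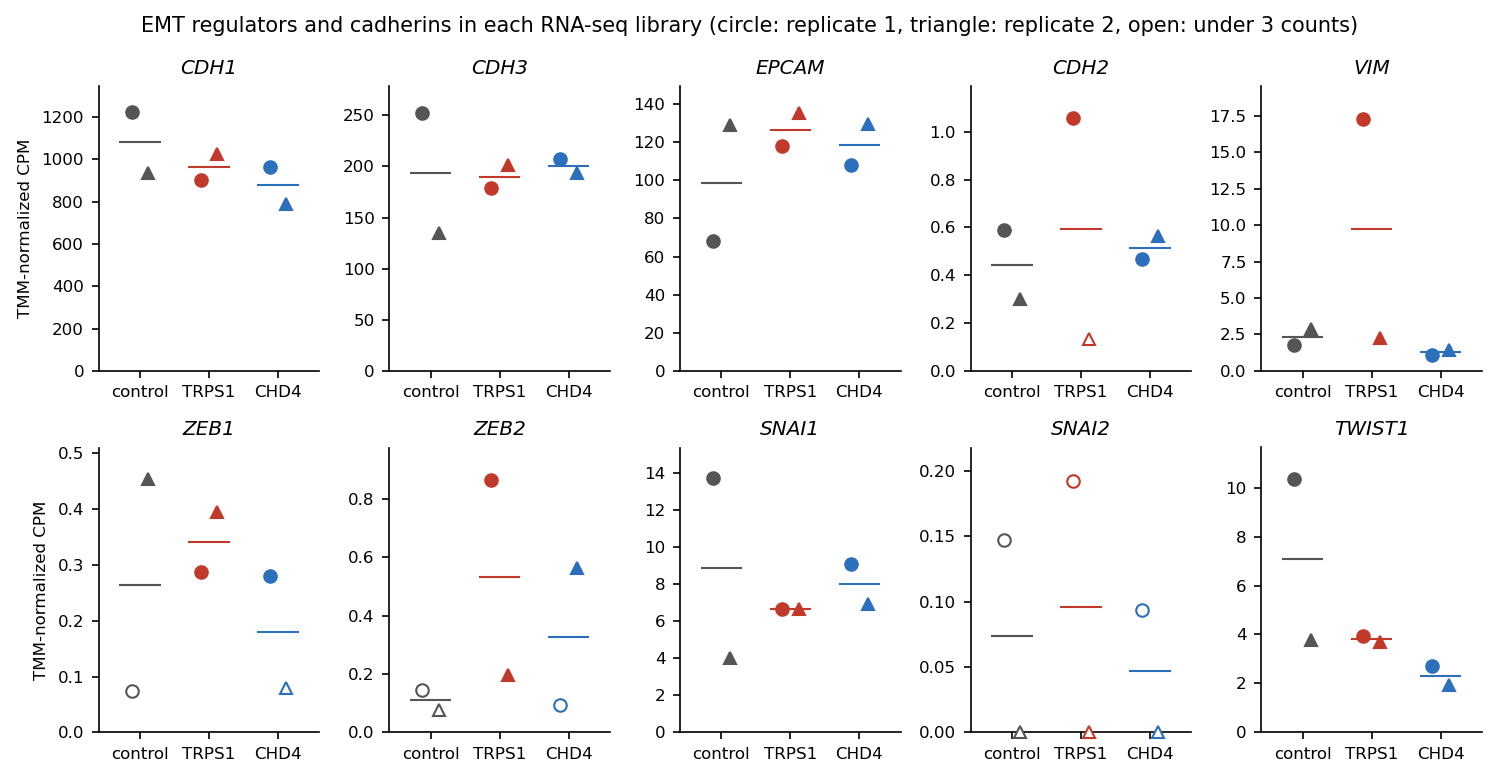
Level of each member in each of the 6 RNA-seq libraries, in TMM-normalized CPM on linear axes that start at 0; circles and triangles are replicates 1 and 2, open symbols are values under 3 counts and lines are means of 2. *VIM* stands out in *TRPS1* siRNA replicate 1 at 17.3 CPM, and all 6 values of *SNAI2* are under 3 counts.

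Among the mesenchymal members, vimentin was raised in 1 of the 6 libraries and not in its replicate. *VIM* had 24 and 38 counts in control siRNA, 180 and 34 in *TRPS1* siRNA, and 12 and 18 in *CHD4* siRNA libraries, or 1.76 and 2.87, 17.3 and 2.24, and 1.12 and 1.45 CPM. Only *TRPS1* siRNA replicate 1 was high, and replicate 2 of the same group lay between both controls. The fitted log2 fold change of *VIM* upon silencing *TRPS1* was 2.06 (SE 0.97, adjusted p = 0.659), and without *TRPS1* siRNA replicate 1 it was -0.03. Upon silencing *CHD4*, *VIM* did not reach over 2 CPM in 2 of the 4 libraries and was not tested. *VIM-AS1*, the antisense transcript next to it, had 0 and 3 counts in control siRNA, 12 and 10 in *TRPS1* siRNA and 3 and 0 in *CHD4* siRNA libraries. Whether the counting used strand is not given in the sources used here, so reads of *VIM* and *VIM-AS1* cannot be told apart. N-cadherin (*CDH2*) had 8 and 4 counts in control siRNA, 11 and 2 in *TRPS1* siRNA, and 5 and 7 in *CHD4* siRNA libraries. It was under 3 counts in 1 library, no library exceeded 1.06 CPM, and it was not tested.

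The ZEB and Slug genes were at or near the limit of detection. *ZEB1* had 1 and 6 counts in control siRNA, 3 and 6 in *TRPS1* siRNA, and 3 and 1 in *CHD4* siRNA libraries, and was under 3 counts in 2 of the 6. *ZEB2* had 2 and 1, 9 and 3, and 1 and 7 counts in the same order, and was under 3 counts in 3 libraries. *SNAI2* had 2 and 0, 2 and 0, and 1 and 0 counts, under the limit in all 6 libraries. None of the 3 genes passed the filter on low counts, and at 9 counts or fewer falls and small differences between groups were not detectable. *ZEB1-AS1*, which lies next to *ZEB1*, had 1 and 37 counts in control siRNA, 40 and 86 in *TRPS1* siRNA, and 27 and 24 in *CHD4* siRNA libraries.

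*SNAI1* and *TWIST1* were detected in every library, and for both the 2 controls were far apart. *SNAI1* had 187 and 53 counts in control siRNA, 69 and 101 in *TRPS1* siRNA, and 97 and 86 in *CHD4* siRNA libraries (13.7 and 4.01, 6.63 and 6.64, and 9.07 and 6.91 CPM). All 4 knockdown libraries lay between both controls. The log2 fold changes were -0.41 (SE 0.67, adjusted p = 0.847) and -0.14 (SE 0.67, adjusted p = 0.968), and without control siRNA replicate 1 they were 0.73 and 1.01. *TWIST1*, encoding a basic helix-loop-helix factor, had 141 and 50 counts in control siRNA, 41 and 56 in *TRPS1* siRNA, and 29 and 24 in *CHD4* siRNA libraries. In CPM these were 10.4 and 3.78, 3.94 and 3.68, and 2.71 and 1.93. Both *CHD4* siRNA libraries lay below both controls, and the *TRPS1* siRNA libraries overlapped the lower control. The log2 fold change of *TWIST1* was -0.89 (SE 0.65, adjusted p = 0.701) upon silencing *TRPS1* and 0.02 without control siRNA replicate 1. Upon silencing *CHD4* it was -1.60 (SE 0.73, adjusted p = 0.792), and -0.69 without that library. Past a fold change of 2, *TWIST1* reached an unadjusted p of 0.0620 here, and it passed 0.05 with the likelihood ratio test, without the filter on low counts, with a filter on every library and in a fit of all 6 libraries.

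**Figure D2:**
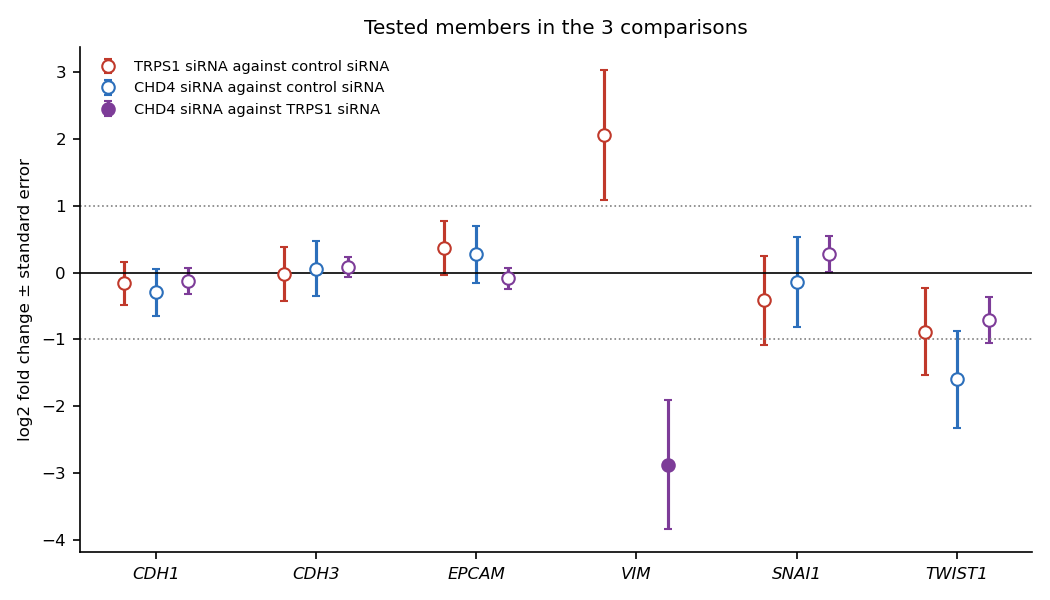
Log2 fold changes of the 6 tested members with their standard errors (2 libraries per group, edgeR quasi-likelihood fit) in the 3 comparisons; dotted lines mark a fold change of 2 and filled points passed 2-fold with an unadjusted p under 0.05. *VIM* between *CHD4* siRNA and *TRPS1* siRNA, at -2.87, is the single filled point.

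Counted together, 6 members could be tested upon silencing *TRPS1* and 5 upon silencing *CHD4*. At a fold change over 2 with an unadjusted p under 0.05, 0 members were called in either comparison, beside 2.7% of all tested genes higher and 3.17% lower upon silencing *TRPS1*, and 2.6% higher and 2.85% lower upon silencing *CHD4*. At an adjusted p under 0.05 the quasi-likelihood test called 0 members and 0% of all genes in both comparisons, although 902 and 769 of all genes had an unadjusted p under 0.05. At that adjusted threshold the likelihood ratio test called 34 and 58 genes and DESeq2 37 and 50, in each case 0 of the members, of which 0 had an unadjusted p under 0.05 in the quasi-likelihood test. The groups did not overlap for 0 members upon silencing *TRPS1*, where 22.8% of all tested genes were higher and 21.3% lower without overlap. Upon silencing *CHD4* 1 member, *TWIST1*, was lower without overlap, where 20.1% of all genes were higher and 19.7% lower. The median log2 fold change of the tested members was -0.09 beside -0.02 over all genes upon silencing *TRPS1*, and -0.14 beside -0.02 upon silencing *CHD4*. The former turned to 0.28 without control siRNA replicate 1, -0.37 without control siRNA replicate 2, 0.041 with library sizes alone and 0.26 over all 10 members without the filter. The latter was -0.073 and -0.47 without either control, -0.011 with library sizes alone and -0.23 without the filter. Both comparisons share the control libraries.

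**Figure D3:**
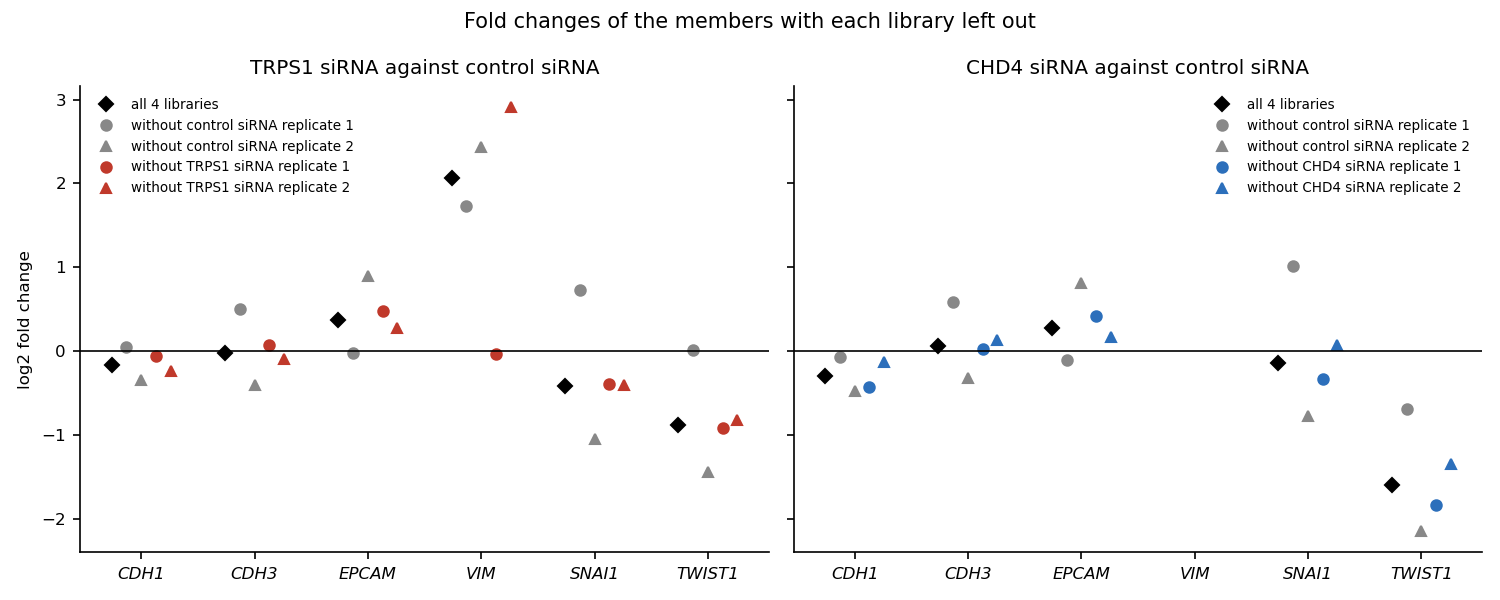
Log2 fold changes of the tested members with all 4 libraries (diamonds) and with each library left out in turn. For *SNAI1*, *EPCAM* and *CDH3* the values without control siRNA replicate 1 and without control siRNA replicate 2 lie on opposite sides of 0 in both comparisons, and *VIM* falls to -0.03 without *TRPS1* siRNA replicate 1.

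The direct comparison of *CHD4* siRNA with *TRPS1* siRNA libraries does not use the controls, and standard errors were smaller for *CDH1*, *CDH3*, *EPCAM*, *SNAI1* and *TWIST1*. *CDH1* differed by -0.13 (SE 0.19), *CDH3* by 0.08 (SE 0.15) and *EPCAM* by -0.09 (SE 0.16) on the log2 scale. For *VIM* the log2 fold change was -2.87 (SE 0.97, unadjusted p = 0.0259, adjusted p = 0.251), and both groups did not overlap. This was the 1 of 6 tested members called, beside 2.12% of all genes higher and 1.56% lower. However, *VIM* entered this test only through the *TRPS1* siRNA libraries, both over 2 CPM, so its value is a description, and with over 2 CPM required in every library 0 members were called. The difference rests on *TRPS1* siRNA replicate 1: without this library, in a fit without the filter on low counts that was added after the values were seen, it was -0.81 (SE 0.74, adjusted p = 0.920). *TWIST1* was lower by -0.71 (SE 0.35, adjusted p = 0.407) and *SNAI1* higher by 0.27 (SE 0.27, adjusted p = 0.698) in *CHD4* siRNA libraries, each without overlap between the groups. With *VIM* these made 3 of 6 members, 1 higher and 2 lower, and over all genes 23.3% were higher and 23.8% lower without overlap. At an adjusted p under 0.05, 0 members and 0% of all genes passed, with 2023 genes at an unadjusted p under 0.05 and 570 genes called by the likelihood ratio test and 456 by DESeq2. *VIM* was the 1 member among these in either test. It also passed without the filter on low counts, where 424 of 19544 genes did, and with a replicate block, where 3372 of 13143 did. All of these fits include *TRPS1* siRNA replicate 1, on which the difference rests.

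The neighbors of these genes in the same pathway were described from lists of other cadherins, catenins, epithelial regulators and mesenchymal genes. Calls below need over 2-fold with an unadjusted p under 0.05, and each list's count stands beside the shares of all genes called, 2.7% higher and 3.17% lower upon silencing *TRPS1* and 2.6% and 2.85% upon silencing *CHD4*. Of the 14 regulators of the epithelial state tested, 2 were called lower and 0 higher upon silencing *TRPS1*, and 2 lower and 0 higher upon silencing *CHD4*. Without regard to size, 3 were higher and 6 lower without overlap of the groups upon silencing *TRPS1*, and 0 higher and 6 lower upon silencing *CHD4*. Over all tested genes 22.8% were higher and 21.3% lower without overlap upon silencing *TRPS1*, and 20.1% and 19.7% upon silencing *CHD4*. *GRHL3*, a grainyhead-like transcription factor of epithelia, had 106 and 53 counts in control siRNA, 10 and 25 in *TRPS1* siRNA and 6 and 21 in *CHD4* siRNA libraries. All 4 knockdown libraries lay below both controls. *GRHL3*, 1 of the 2 calls in each comparison, passed the filter only through the controls, where it is high, and with over 2 CPM required in every library 1 of 13 and 1 of 12 regulators were called lower. *OVOL2*, a zinc finger repressor known to restrain *ZEB1*, had 171 and 95, 48 and 80, and 13 and 33 counts. Its log2 fold change was -2.33 (SE 0.68) upon silencing *CHD4*, where it passed, and -0.99 (SE 0.52) upon silencing *TRPS1*, where it did not. At 1.22 CPM in *CHD4* siRNA replicate 1, *OVOL2* too was removed upon silencing *CHD4* when over 2 CPM was required in every library. Both calls of that comparison were thus lost, and the 1 of 12 called lower there was a gene not called in the main fit. *ESRP2*, an epithelial splicing regulator, had 6990 and 3031 counts in control siRNA, 2005 and 2196 in *TRPS1* siRNA and 2212 and 1584 in *CHD4* siRNA libraries. It passed upon silencing *TRPS1* (log2 fold change -1.14, SE 0.46) and not upon silencing *CHD4* (-1.14, SE 0.49, unadjusted p = 0.0503), and without control siRNA replicate 1 its change was -0.44 in both. The median over the 14 genes was -0.30 and -0.20. In both comparisons the number of regulators called lower fell without control siRNA replicate 1 and rose without control siRNA replicate 2. This number also fell without either *TRPS1* siRNA library and without *CHD4* siRNA replicate 1. The number of lower calls over all genes moved in the same way.

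Of the mesenchymal genes, 3 of 13 tested were called higher and 0 lower upon silencing *TRPS1*, and 5 of 15 higher and 0 lower upon silencing *CHD4*. With over 2 CPM required in every library, 3 of 10 were called higher in each. Without overlap, 22.8% of all tested genes were higher and 21.3% lower upon silencing *TRPS1*, and 20.1% and 19.7% upon silencing *CHD4*. Of the mesenchymal genes, without regard to size, 8 were higher and 1 lower without overlap in each comparison, the lower one being *FN1* (fibronectin). The median log2 fold change was 0.85 and 0.91, and it depended on the filter and the fit. Upon silencing *TRPS1* it was 0.31 over the 20 genes over 0.5 CPM in 2 libraries, 0.33 over 16 genes in a fit of all 6 libraries and 0.55 over 27 unfiltered genes, and upon silencing *CHD4* it was 0.69, 0.71 and 0.70 in the same settings and 0.34 with over 2 CPM in every library. *COL5A2*, a fibrillar collagen chain, had 79 and 63 counts in control siRNA, 209 and 332 in *TRPS1* siRNA and 179 and 234 in *CHD4* siRNA libraries (log2 fold changes 1.99, SE 0.42, and 1.76, SE 0.47). *CALD1*, encoding the actin-binding protein caldesmon, had 63 and 75, 136 and 195, and 121 and 161 counts (1.33, SE 0.45, and 1.24, SE 0.51). For both genes every knockdown library lay above both controls. *THY1*, a cell surface glycoprotein, had 22 and 14 counts in control siRNA, 38 and 37 in *TRPS1* siRNA and 185 and 135 in *CHD4* siRNA libraries. It was called upon silencing *CHD4*, where it passed the filter only through the *CHD4* siRNA libraries. The receptor tyrosine kinase gene *AXL* also passed upon silencing *CHD4*, at 73 and 89 against 179 and 166 counts (1.32, SE 0.48). *GNG11*, a G protein gamma subunit, passed upon silencing *TRPS1* at 57 and 30 against 190 and 110 counts (1.98, SE 0.66), with 1.18 without *TRPS1* siRNA replicate 1, where it was not called, and 2.51 without replicate 2. The number of mesenchymal genes called higher depended on the library left out, and fell with a single knockdown library. The number over all genes moved in the same way. None of the tested mesenchymal genes had an adjusted p under 0.05 in the quasi-likelihood test with all libraries. Luminal, basal, endothelial and leukocyte marker sums moved between the same groups, as given above, and their part in these results was not tested. The marker lists also share genes with the related lists. Among others, *ACTA2* is both a basal marker and a mesenchymal gene, and *FOXA1* both a luminal marker and an epithelial regulator.

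**Figure D4:**
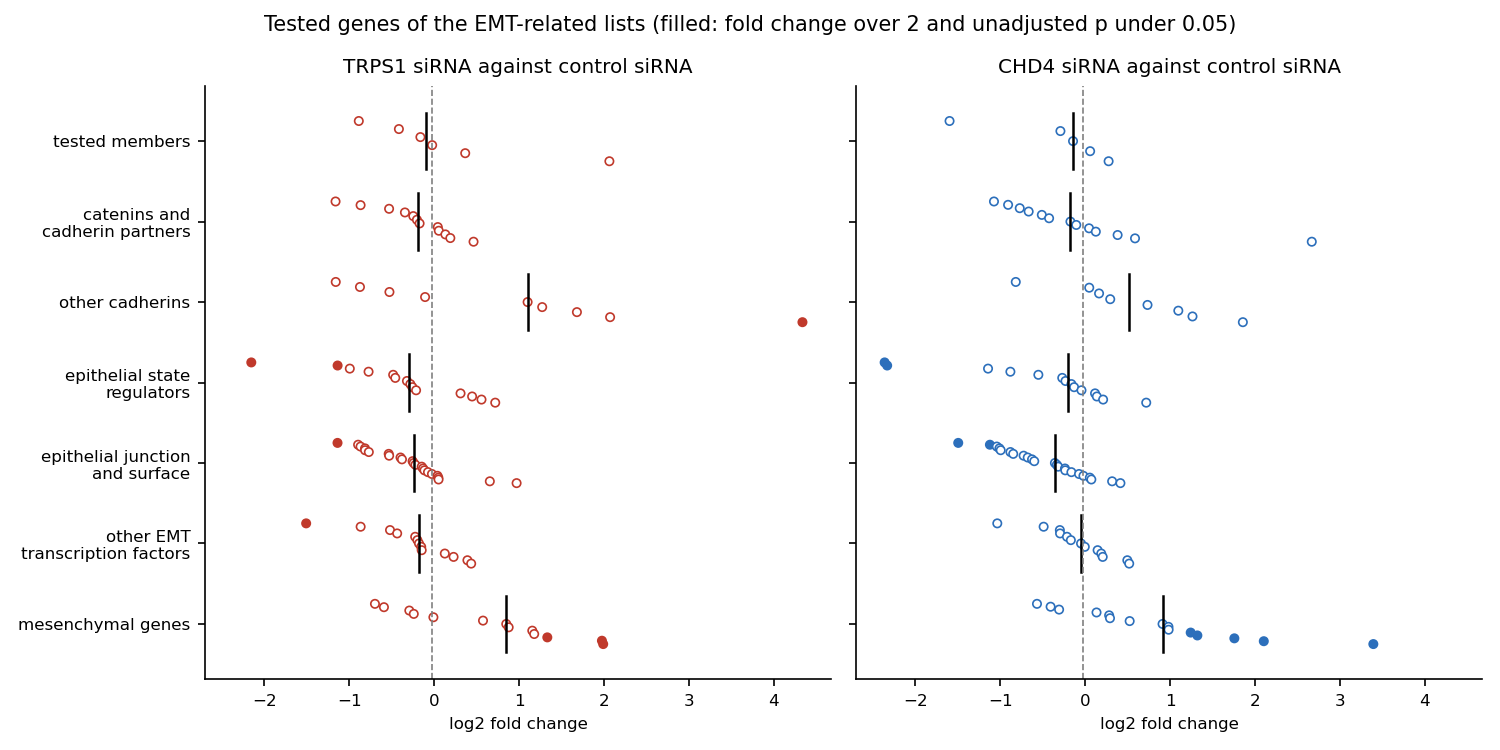
Log2 fold changes of the tested members and of the tested genes of each related list upon silencing *TRPS1* (left) and *CHD4* (right); black bars are list medians, the dashed line is the median over all tested genes and filled points passed a fold change over 2 with an unadjusted p under 0.05. Medians are 0.85 and 0.91 for the mesenchymal genes and -0.09 and -0.14 for the 6 and 5 tested members; under other filters and fits the former fall to 0.31 and 0.34 and the latter turn to 0.26 and -0.23.

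Other cadherins, of which 21 of 27 listed symbols were in the tables, gave 1 higher call among 9 genes tested upon silencing *TRPS1* and 0 among 8 upon silencing *CHD4*, beside the 2.7% and 2.6% of all genes called higher. *CDH10*, a type II cadherin, had 4 and 2 counts in control siRNA, 41 and 82 in *TRPS1* siRNA and 19 and 25 in *CHD4* siRNA libraries. Both knockdown groups lay above the controls. *CDH10* was the list's 1 call and passed the filter only through the *TRPS1* siRNA libraries, so it is given as a description, and with over 2 CPM required in every library 0 of 3 other cadherins were called. Upon silencing *TRPS1*, the number of other cadherins called fell without either *TRPS1* siRNA library and rose without either control library. The number over all genes moved in the same way. Catenins and cadherin partners gave 0 calls among 12 and 13 genes tested, with median log2 fold changes of -0.19 and -0.17. Epithelial junction and surface genes gave 1 lower call of 23 upon silencing *TRPS1* and 2 lower calls of 23 upon silencing *CHD4*, with medians of -0.24 and -0.36, beside 3.17% and 2.85% of all genes called lower. These were the tight junction genes *CLDN1* in both (2407 and 4121 counts in control siRNA, 1266 and 1518 in *TRPS1* siRNA and 1167 and 788 in *CHD4* siRNA libraries) and *CLDN3* upon silencing *CHD4* (2428 and 1078 against 667 and 701 counts). The *CLDN3* change of -1.12 was -0.44 without control siRNA replicate 1. Lower calls in this list rose in number without control siRNA replicate 2 in both comparisons, as they did over all genes. Among other EMT transcription factors 1 of 13 passed upon silencing *TRPS1* and 0 of 13 upon silencing *CHD4*. It was *FOXM1*, a factor known for driving cell cycle genes, with 3328 and 1629 against 491 and 1241 counts (log2 fold change -1.51, SE 0.48, and -0.92 without control siRNA replicate 1).

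TRPS1 peaks were sparse at the loci of the members. No peak overlapped a member gene or lay within 5 kb of one (0 of 10), beside 6.46% of the 18896 genes of the count tables that could be placed on GRCh38. Within 100 kb, 1 of 10 members had a peak, beside 22.4% of all genes, and within 500 kb 6 of 10, beside 53.7%. The median distance from a member to its nearest peak was 453 kb, beside 429 kb over all genes. *VIM* (chr10:17228241-17237593) had the nearest one, a peak of 228 bp at chr10:17249041-17249268. It lay 11.4 kb beyond the end of the gene and 20800 bp from its start, outside any annotated gene. The nearest peak to *SNAI1* lay 127 kb away, inside *PEDS1-UBE2V1*, and that to *EPCAM* 193 kb away, inside *CALM2*. *ZEB1* was 230 kb from its nearest peak. *CDH1* (chr16:68737292-68835537) and its neighbor *CDH3* (chr16:68645310-68733771) shared their nearest peak, at chr16:68237571-68237850, 499 and 407 kb away. That peak lies just beyond *ESRP2* (chr16:68229033-68236127), which itself holds a peak at chr16:68234231-68234458. The nearest peaks to *ZEB2*, *SNAI2*, *TWIST1* and *CDH2* were 1019, 1375, 1494 and 2011 kb away.

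**Figure D5:**
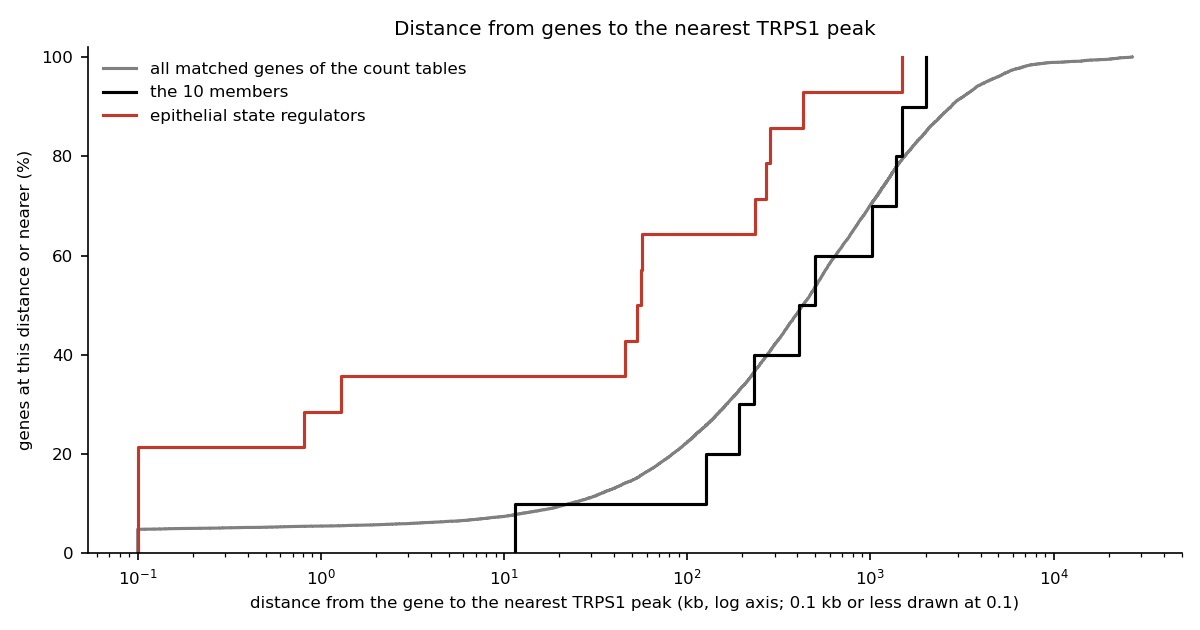
Cumulative share of genes (vertical axis, percent) by distance to the nearest TRPS1 peak (horizontal axis, kb, log scale) for the 10 members, the 14 regulators of the epithelial state and all 18896 placed genes. The curve of the members starts at *VIM* at 11.4 kb and crosses that of all genes, while 5 of the 14 regulators have a peak within 5 kb.

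Over all placed genes 6.46% overlapped a peak or lay within 5 kb of one, and the median distance was 429 kb. Among the regulators of the epithelial state 5 of 14 (35.7%) did so, with a median distance of 54.7 kb. These were *GRHL2* and *EHF*, with a peak inside the gene, *ESRP2*, and *FOXA1* and *ELF3*, with peaks 0.812 and 1.29 kb away. Of the 15 catenins and cadherin partners placed, 4 (26.7%) did so: *CTNNA3*, *CTNND1* (p120 catenin), *JUP* (plakoglobin) and *NECTIN2*. Of the junction and surface genes 2 of 25 did so, among them *DSP* (desmoplakin), *RUNX1* was the 1 of 19 other EMT transcription factors, and 0 of 21 other cadherins and 0 of 27 mesenchymal genes had a peak this near. These shares are descriptions, no difference between lists was tested, and long genes have more room for a peak. One list was deposited for all 4 ChIP-seq libraries, so no peak has a replicate error.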

How the data were processed

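The authors trimmed reads, aligned RNA-seq reads with STAR, and deposited raw gene counts made with HTSeq (version 0.9.0 in the submitters' processing notes) in 1 table per knockdown; both hold the same control columns. They aligned ChIP-seq reads with BWA 0.7.12-r1039 and called peaks with MACS2 2.1.1 on hg38, and the deposited list holds only start and end positions in bp; pooling of replicates is not stated. Counts were fitted per comparison in edgeR 4.0.16 (R 4.3.3): genes over 2 CPM in at least 2 of 4 libraries, TMM scaling, quasi-likelihood F-test, prior count 0.125, Benjamini-Hochberg adjustment over all genes tested. Standard errors were derived from each log2 fold change and its F statistic. A call needs over 2-fold with an unadjusted p under 0.05, the threshold of the study. The fit was also run on simulated counts with 200 changed genes. Their spread was set in advance and not taken from these libraries, so that run does not show how the fit performs here. Distances run from a peak to the nearest end of the gene, since strand was known for 4 members only; a start site would be at least as far. Of 19695 genes, 18896 were placed by symbol or synonym on RefSeq GRCh38.p14, which may differ from the authors' annotation. Gene lengths over exons were not at hand, so levels are not compared between genes. The members and lists were chosen with earlier results of these data known. Named are all members, the targeted genes and, of each related list, genes called in a knockdown or with a peak within 5 kb, at most 5 each. *CD68*, *COL1A1*, *PDGFRB*, *VWF*, *FN1*, *ACTA2*, *TP63*, *OXTR*, the basal keratin genes, the antisense genes and *TNC* were named after their values were seen. Alternatives were edgeR's likelihood ratio test, DESeq2 1.42.0, other scalings and filters, a replicate block, a fit of all 6 libraries, a larger prior count (2) and leaving out each library; a fit for *VIM* with no filter and a library left out was added later. Some genes of the lists are counted but not reported by name here.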

Additional observations from a re-analysis of the deposited data

How the results depend on the processing

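Upon silencing *TRPS1* 1 member (*VIM*) was called with the likelihood ratio test, DESeq2 and no filter on low counts, and leaving out a library gave 0 to 2 (0 to 3 at an adjusted p under 0.05; the 3, *EPCAM*, *SNAI1* and *TWIST1*, came without control siRNA replicate 2). The fit without control siRNA replicate 2 rests on a lone control library. A large share of all tested genes passed the adjusted threshold there too, so these 3 do not set the members apart. Upon silencing *CHD4* 1 member (*TWIST1*) was called with the likelihood ratio test, no filter, over 2 CPM in every library and all 6 libraries in one fit. Between *CHD4* and *TRPS1* siRNA 0 members were called with over 2 CPM in every library, which removes *VIM*. At an adjusted p under 0.05, 1 (*VIM*) passed there with the likelihood ratio test, DESeq2, no filter and the replicate block. All of these fits include *TRPS1* siRNA replicate 1, where *VIM* is high. Within 500 kb, 6 members had a peak.

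The direction of *CDH3* upon silencing *TRPS1* turned to 0.11 with library sizes alone, 0.036 with over 2 CPM in every library and 0.045 with the replicate block, and that of *SNAI1* upon silencing *CHD4* to 0.090 with the block. With a library left out, log2 fold changes upon silencing *TRPS1* ran from -0.34 to 0.049 (*CDH1*), -0.41 to 0.50 (*CDH3*), -0.019 to 0.90 (*EPCAM*), -1.04 to 0.73 (*SNAI1*), -1.44 to 0.016 (*TWIST1*), -0.030 to 2.91 (*VIM*) and -0.99 to 0.14 (*CLDN3*). Upon silencing *CHD4* they ran from -0.32 to 0.59 (*CDH3*), -0.10 to 0.81 (*EPCAM*), -0.77 to 1.01 (*SNAI1*) and -0.090 to 0.80 (*GNG11*), and between the knockdowns from -0.29 to 0.025 (*CDH1*), -0.0059 to 0.19 (*CDH3*) and -0.21 to 0.036 (*EPCAM*). Without the filter and without *TRPS1* siRNA replicate 1, *VIM* was at -0.064 upon silencing *TRPS1*. The causes were not tested.

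Replicate numbers are shared by the groups, but deviations correlated at r = 0.088 and 0.018 between controls and knockdowns and at 0.646 between the knockdowns, from 2 numbers only, so they were not taken as pairs. The block moved the calls at an adjusted p under 0.05 over all genes to 32, 44 and 3372. Library sizes alone shifted the median of all genes by 0.13 in both knockdown comparisons and turned 349 higher and 410 lower calls into 490 and 253 (*TRPS1*), and 336 and 368 into 458 and 222 (*CHD4*). No filter shifted it by 0.15 and 0.16 and gave 635 and 724, and 730 and 673. Leaving out control siRNA replicate 2 gave 2457 higher and 1847 lower calls (*TRPS1*) and 2255 and 1714 (*CHD4*). Of the values of single genes under alternatives, 497 kept direction and side of the threshold, 27 passed it anew, 36 lost it and 22 changed sign. *SNAI2*, *ZEB1*, *ZEB2* and *CDH2* had 11 counts or fewer in every library, so falls and small changes in them could not be seen.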

Other observations

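*VIM* was not alone in standing high in *TRPS1* siRNA replicate 1. *TNC*, encoding the matrix protein tenascin-C and chosen after its values were seen, had 9 and 16 counts in control siRNA, 81 and 12 in *TRPS1* siRNA and 10 and 8 in *CHD4* siRNA libraries. In CPM it reached 7.78 in *TRPS1* siRNA replicate 1 and 0.789 in replicate 2, and it was not tested after either knockdown. *ZEB1-AS1* was at 40 and 86 counts in *TRPS1* siRNA against 27 and 24 in *CHD4* siRNA libraries (log2 fold change of *CHD4* against *TRPS1* siRNA -1.10, SE 0.37, adjusted p = 0.254), while *ZEB1* itself stayed at 6 counts or fewer in every library.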
